A study of Homo sapiens with 12 samples.

Results

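The genes described here are 39 genes of glycolysis and of the cellular response to low oxygen, read in MDA-MB231 cells, a triple-negative human breast cancer line, after inhibition or silencing of the histone H3K79 methyltransferase DOT1L. They were chosen by name and role, with earlier results of these data known, as every array probe annotated to one of 39 gene symbols or their older names. Counts of called members set against all genes are therefore no independent test. The 39 genes comprise 24 glycolytic enzymes and transporters, 13 other hypoxia targets and the 2 HIF alpha subunits HIF1A and EPAS1. Of the 39 genes, 37 had an annotated probe (65 probes of 47,322 on the array) and 36 were detected well enough to be tested (53 probes), among 10,773 genes tested in all. SLC16A3 and CA9 were not analysed here. EGLN3 was detected on 0 of 12 arrays and was not tested. PKM is listed on the array under its older name PKM2.

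There were 12 Illumina HT-12 v4 arrays, 2 for each of 6 groups, and the labels call these pairs biological replicates. The control cells received 0.1% DMSO for 14 days. Compound 1 (EPZ004777) was given at 1 or 5 μM and compound 2 (SYC-522, Compound 55 in the labels) at 2 or 10 μM, both DOT1L inhibitors and both for 14 days, with medium and compound renewed at intervals. DOT1L siRNA-1 was transfected at 10 nM for 7 days. Because siRNA-1 differed from the control also in duration and in the transfection, and no array of a mock siRNA was analysed here, these cannot be told apart from silencing in the comparison of siRNA-1 with control. All groups are of 1 cell line, and with 2 arrays a group the p-values measure only the spread between these cultures. In bulk RNA, fewer cells of a state and less RNA per cell cannot be told apart.

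Glycolysis converts glucose to pyruvate, which lactate dehydrogenase reduces to lactate or which enters the mitochondria through pyruvate dehydrogenase. When oxygen is low, HIF1A or EPAS1 escapes prolyl hydroxylation by the EGLN enzymes, pairs with ARNT and binds ACGTG or GCGTG in target genes, so that glucose transporters, glycolytic enzymes and pyruvate dehydrogenase kinases are raised together with genes of angiogenesis, mitophagy and collagen modification. Many breast cancer cells, among them lines of this class, run a high rate of glycolysis in normal oxygen.

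Over the 12 arrays, 34.0% to 36.7% of probes were detected, the median probe signal of an array lay between 9.90 and 14.9, and replicate arrays correlated at r = 0.991 to 0.994. Values below are normalised signals, linear bead intensities after background correction and centring of each array, and differences are log2 fold changes between group means, given ± their standard error. A gene was called where the adjusted p of limma over all probes was below 0.05, and it was read from its brightest tested probe. Levels of different genes cannot be ranked from such signals, since probes differ in brightness. Of 6 markers fixed for the line, 5 were detected on all 12 arrays (VIM, CD44, CAV1, AXL and MSN) and SPARC on 0. Of 6 markers taken as low or absent, ESR1, PGR and CDH1 were detected on 0 arrays, GATA3 on some but not all, and ERBB2 and EPCAM on all 12. The only DOT1L probe lay near background (44.1 and 40.9 on the control arrays, 46.4 and 38.3 with siRNA-1), so these arrays left silencing unmeasured. Of 5 markers of other cell types, PTPRC, CD3E and COL1A1 were detected on 0 arrays, while PECAM1 read 65.8 and 39.7 on the control arrays, 89.0 to 138 with the compounds and 199 and 170.3 with siRNA-1, and ALB, detected on all 12, read 116 and 124 on the control arrays, 73.5 to 101 with the compounds and 68.0 and 79.7 with siRNA-1. PECAM1 was thus higher and ALB lower in the treated groups, and their part in the results was not tested.

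The 2 control arrays differed from each other in several of these genes, which bears on every comparison with control. Control replicate 1 lay above control replicate 2 by 2.33-fold in NDRG1, 1.99-fold in ALDOC, 1.96-fold in PFKFB4, 1.82-fold in BHLHE40, 1.68-fold in SLC2A3 and 1.47-fold in P4HA1. These 6 were the members that differed by more than 0.5 on the log2 scale, 16.7% of the 36 tested, against 5.73% of all genes in the same direction. The median difference of replicate 1 from replicate 2 was 0.21 over the members and 0.03 over all genes. In the other groups, 0 to 2 members differed between replicates by as much in either direction. Whether the culture of control replicate 1 or that of control replicate 2 departs from the usual state was not tested. Counts of calls are given below against both arrays and against each alone, as are values of the called members, for the compounds mostly as the mean of the 4 groups. All 5 comparisons with control share these 2 arrays.

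The promoters of 4 members called higher and that of GAPDH, a glycolytic gene that was not called, are shown because ACGTG and GCGTG are the cores that HIF binds. Each is a RefSeq window of 300 bases (250 before and 50 after the annotated start) in GRCh38.p14, printed 5′ to 3′ on the strand of the gene, with capitals for ACGTG and GCGTG on either strand (CACGT and CACGC on the printed strand). KDM3A has 2 such windows, of which the one listed first is shown, and the other genes shown have 1. CACGTG holds both ACGTG and CACGT.
BHLHE40 chr3:4979187-4979486 +: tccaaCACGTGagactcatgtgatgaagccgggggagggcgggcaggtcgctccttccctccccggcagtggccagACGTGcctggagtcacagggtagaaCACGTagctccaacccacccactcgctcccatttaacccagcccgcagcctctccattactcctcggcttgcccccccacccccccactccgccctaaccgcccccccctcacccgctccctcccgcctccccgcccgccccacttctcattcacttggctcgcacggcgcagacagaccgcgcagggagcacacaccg
ALDOC chr17:28576846-28577145 -: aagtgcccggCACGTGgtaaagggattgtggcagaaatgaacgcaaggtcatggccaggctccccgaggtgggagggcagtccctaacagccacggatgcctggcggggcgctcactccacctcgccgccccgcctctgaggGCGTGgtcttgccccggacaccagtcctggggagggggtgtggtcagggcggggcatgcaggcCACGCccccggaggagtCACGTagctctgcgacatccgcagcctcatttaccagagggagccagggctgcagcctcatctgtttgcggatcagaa
PFKFB4 chr3:48556754-48557053 -: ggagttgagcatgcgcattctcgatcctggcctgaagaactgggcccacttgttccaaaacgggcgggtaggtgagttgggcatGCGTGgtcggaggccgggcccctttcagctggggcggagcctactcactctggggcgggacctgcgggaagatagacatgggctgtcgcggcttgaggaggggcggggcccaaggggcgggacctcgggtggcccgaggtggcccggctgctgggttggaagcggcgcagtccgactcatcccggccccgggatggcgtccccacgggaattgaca
KDM3A chr2:86441121-86441420 +: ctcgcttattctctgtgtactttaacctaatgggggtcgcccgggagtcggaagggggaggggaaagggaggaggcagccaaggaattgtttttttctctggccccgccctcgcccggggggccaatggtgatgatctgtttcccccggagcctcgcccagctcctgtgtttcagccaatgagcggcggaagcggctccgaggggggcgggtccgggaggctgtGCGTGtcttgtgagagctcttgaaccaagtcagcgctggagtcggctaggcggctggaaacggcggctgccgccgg
GAPDH chr12:6535014-6535313 +: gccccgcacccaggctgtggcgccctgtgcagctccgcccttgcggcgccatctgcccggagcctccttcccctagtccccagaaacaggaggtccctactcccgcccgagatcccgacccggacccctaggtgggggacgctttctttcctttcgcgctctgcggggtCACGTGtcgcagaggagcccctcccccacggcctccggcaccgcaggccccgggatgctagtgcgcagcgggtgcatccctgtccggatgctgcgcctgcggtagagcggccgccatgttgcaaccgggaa
BHLHE40 held 4 matches, counting CACGTG as 2, ALDOC held 5, PFKFB4 and KDM3A held 1 each, and GAPDH held 2. Of the 39 members, 35 had a window. An ACGTG or its complement stood in at least 1 window of 22 of these 35 genes (62.9%), against 24.9% of all 27,305 genes, and either core in 33 (94.3%) against 52.4%. Counted by window, ACGTG stood in 26 of 63 windows of the members (41.3%) and in 21.4% of all 35,116 windows. By window GCGTG stood in 41.3% of those of the members against 36.5% of all, and either core in 69.8% against 48.4%. Of the 13 members called higher in at least 1 comparison with control, 10 had a window. ACGTG stood in 6 of these 10 (60%) and in 14 of 22 other tested members with a window (63.6%), and either core in 10 of 10 and 21 of 22. The other members have more windows each (44 for 22 genes, against 12 for 10), and counted by window the shares of called and other members were 50% and 40.9% for ACGTG, 58.3% and 38.6% for GCGTG and 91.7% and 65.9% for either core. No test was made of these differences. These matches describe the letters of the windows only, and binding was not measured.

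A minority of the members were called higher with the compounds, and the core enzymes GAPDH, ENO1, PGK1 and LDHA were not among them. Called or not, log2 fold changes were positive in 29 and 29 of 36 members with 1 and 5 μM compound 1. With 2 and 10 μM compound 2 they were positive in 28 and 29. The share of all genes with a positive change was not counted. Against control replicate 1 alone the member medians were 0.18 and 0.04 with 1 and 5 μM compound 1. With 2 and 10 μM compound 2 they were 0.20 and 0.06. Against control replicate 2 alone the medians in that order were 0.27, 0.21, 0.30 and 0.18. With compound 1, 6 of 36 tested members were called higher at 1 μM (ALDOC, PFKFB4, SLC2A3, BHLHE40, BNIP3L and NDRG1), where 3.73% of all genes were called higher and 5.73% in either direction, and 1 at 5 μM (KDM3A), where 2.01% and 2.49% were. With compound 2, 8 were called higher at 2 μM (the same 6 as with 1 μM compound 1, with ENO2 and PDK3), where 2.8% of all genes were called higher and 4.09% in either direction, and 4 at 10 μM (SLC2A3, BHLHE40, BNIP3L and NDRG1), where 2.91% and 3.69% were. In each of these 4 comparisons 0 members were called lower by limma, while 2%, 0.473%, 1.29% and 0.78% of all genes were with 1 and 5 μM compound 1 and 2 and 10 μM compound 2. At an unadjusted p below 0.05, 12, 9, 14 and 13 of 36 members passed in that order, against 25.2%, 19.8%, 24.8% and 22.2% of all genes. Median log2 fold changes of the members in the same order were 0.20, 0.14, 0.20 and 0.12, against -0.03, -0.05, -0.04 and -0.02 over all genes. Against control replicate 1 alone these counts became 3, 0, 1 and 0, and against control replicate 2 alone 9, 6, 11 and 9. The calls over all genes moved in the same way, to 0.622%, 0.659%, 0.446% and 0.64% in either direction against replicate 1 alone and 10%, 5.75%, 9.77% and 8.97% against replicate 2 alone. SLC2A3, BHLHE40 and NDRG1 were the 3 members called with 1 μM compound 1 against replicate 1 alone, and SLC2A3 the 1 called with 2 μM compound 2.

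Pooling the 4 compound groups, whose mean was compared with the same 2 control arrays, 11 members were called higher and 0 lower by limma, and 12.2% of all genes were called in either direction, 6.73% higher and 5.44% lower. Without control replicate 2 there were 3 such members (BHLHE40, NDRG1 and SLC2A3) and without control replicate 1 there were 10, while the share of all genes called in either direction was 1.11% and 13.8%. In 11 members all 8 compound arrays lay above both control arrays, which held for 11.3% of all genes. TPI1 was the 1 member with all 8 below both controls, against 14.6% of all genes.

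**Figure D1:**
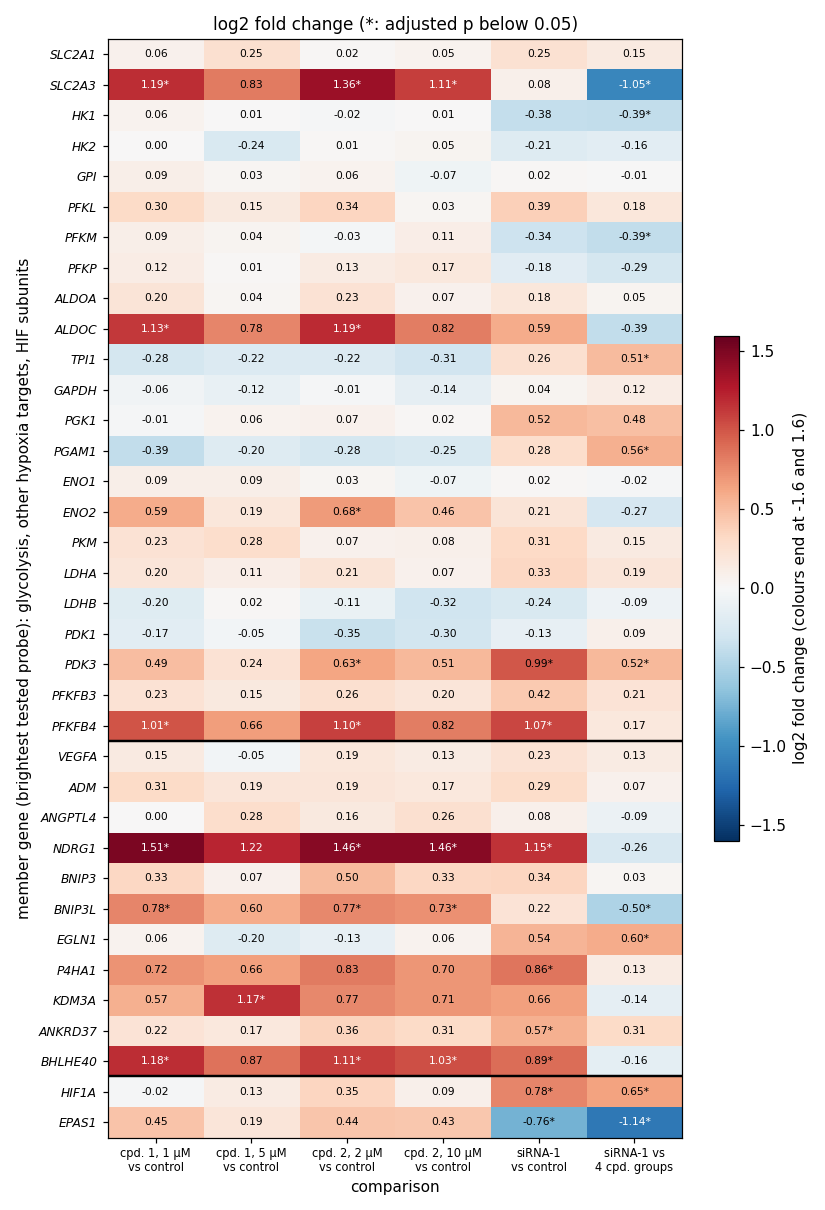
Log2 fold change of each of the 36 tested members (rows, in the order glycolytic genes, other hypoxia targets, HIF subunits) in 6 comparisons (columns), red for higher, blue for lower, with an asterisk at an adjusted p below 0.05. Most glycolytic rows are pale, NDRG1 reaches 1.51 and SLC2A3 1.36 with the compounds, and EPAS1 is blue only in the siRNA-1 columns (-0.76 and -1.14).

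Uptake of glucose was represented by 2 transporters that behaved differently. SLC2A3 (GLUT3), a high-affinity transporter, had normalised signals of 1105 and 658 on the control arrays, 2009.6 and 1875 with 1 μM compound 1, 1520.4 and 1509 at 5 μM, 2338 and 2059.8 with 2 μM compound 2, 1753 and 1939 at 10 μM, and 880.1 and 919 with siRNA-1. All 8 compound arrays lay above both control arrays, and the siRNA-1 arrays lay between the controls. Its log2 fold change was 1.19 ± 0.20 (adjusted p = 0.00961) with 1 μM compound 1 and 0.83 ± 0.20 (adjusted p = 0.0545) at 5 μM, and 1.36 ± 0.20 (adjusted p = 0.0066) with 2 μM compound 2 and 1.11 ± 0.20 (adjusted p = 0.0146) at 10 μM. The mean of the compound groups was 2.18-fold the control, and the log2 value was 0.75 (adjusted p = 0.029) against control replicate 1 alone and 1.50 (adjusted p = 0.000197) against control replicate 2 alone. With siRNA-1 the change was 0.08 ± 0.20 (adjusted p = 0.851). SLC2A1 (GLUT1), the broadly expressed transporter, read 2364 and 2049 on the control arrays, 2193 and 2417 with 1 μM compound 1, 2710.5 and 2536 at 5 μM, 2264 and 2205 with 2 μM compound 2, 2487 and 2090.4 at 10 μM, and 2533 and 2693 with siRNA-1. Control and treated arrays of SLC2A1 overlapped for 3 of the 4 compound groups, while those of 5 μM compound 1 and of siRNA-1 lay above both controls. Its largest changes were 0.25 ± 0.13 (adjusted p = 0.326) with 5 μM compound 1 and 0.25 ± 0.13 (adjusted p = 0.284) with siRNA-1, and neither was called. Probe sequences were not used here, so signal from the near-identical SLC2A14 cannot be separated from that of SLC2A3.

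PFKFB3 and PFKFB4 are the 2 members among the bifunctional enzymes that set fructose 2,6-bisphosphate, the activator of phosphofructokinase. PFKFB4 read 477 and 244 on the control arrays, 688 and 685 with 1 μM compound 1, 570.2 and 512 at 5 μM, 702 and 757 with 2 μM compound 2, 584 and 619.9 at 10 μM, and 655 and 784 with siRNA-1. Every treated array lay above both control arrays, those of 5 μM compound 1 nearest to control replicate 1. PFKFB4 rose by 1.01 ± 0.24 (adjusted p = 0.0348) with 1 μM compound 1, 1.10 ± 0.24 (adjusted p = 0.034) with 2 μM compound 2 and 1.07 ± 0.24 (adjusted p = 0.0144) with siRNA-1. The higher doses gave 0.66 ± 0.24 (adjusted p = 0.165) with compound 1 and 0.82 ± 0.24 (adjusted p = 0.0827) with compound 2, neither called. For the 4 compound groups together the value was 0.41 (adjusted p = 0.194) against control replicate 1 alone and 1.38 (adjusted p = 0.000448) against control replicate 2 alone, and for siRNA-1 it was 0.59 (adjusted p = 0.0552) against control replicate 1 alone and 1.56 (adjusted p = 0.000285) against control replicate 2 alone. PFKFB3 was not called in any comparison, with changes of 0.15 to 0.26 with the compounds and 0.42 ± 0.13 (adjusted p = 0.0701) with siRNA-1.

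Aldolase and enolase are each encoded by a widespread and a more restricted isoform, and the calls fell on the restricted ones. ALDOC, the aldolase best known from brain, read 266 and 134 on the control arrays, 428 and 401 with 1 μM compound 1, 322 and 329 at 5 μM, 439.6 and 423 with 2 μM compound 2, 340.3 and 328 at 10 μM, and 261 and 309.5 with siRNA-1. All 8 compound arrays exceeded both controls, and the siRNA-1 arrays straddled control replicate 1. ALDOC rose by 1.13 ± 0.24 (adjusted p = 0.0242) with 1 μM compound 1 and 1.19 ± 0.24 (adjusted p = 0.0273) with 2 μM compound 2, while 0.78 ± 0.24 (adjusted p = 0.11) and 0.82 ± 0.24 (adjusted p = 0.0827) at the higher doses and 0.59 ± 0.24 (adjusted p = 0.153) with siRNA-1 were not called. For the compound groups together it was 0.49 (adjusted p = 0.125) against control replicate 1 alone and 1.48 (adjusted p = 0.000227) against control replicate 2 alone. ALDOA, the major aldolase of most cells, changed by 0.04 to 0.23 with the compounds and by 0.18 ± 0.12 (adjusted p = 0.378) with siRNA-1, none called. ENO2, the neuron-type enolase, read 1247 and 919.7 on the control arrays, 1561 and 1669 with 1 μM compound 1, 1112 and 1333 at 5 μM, 1853 and 1597 with 2 μM compound 2, 1375 and 1576 at 10 μM, and 1150.1 and 1338 with siRNA-1. Its 2 arrays of 5 μM compound 1 fell on either side of control replicate 1, whereas the arrays of the other compound groups lay above both controls. ENO2 rose by 0.68 ± 0.17 (adjusted p = 0.0497) with 2 μM compound 2, a call close to the threshold, and changed by 0.59 ± 0.17 (adjusted p = 0.0654) with 1 μM compound 1, 0.46 ± 0.17 (adjusted p = 0.153) with 10 μM compound 2 and 0.19 ± 0.17 (adjusted p = 0.58) with 5 μM compound 1. Against control replicate 1 alone the mean of the compound groups was 0.26 (adjusted p = 0.438) and against replicate 2 alone 0.70 (adjusted p = 0.019). ENO1, the enolase of most cells, stayed between -0.07 and 0.09 with the compounds and at 0.02 with siRNA-1, with no call.

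PDK3 is one of the kinases that inactivate pyruvate dehydrogenase and so keep pyruvate from the mitochondria. Its normalised signals were 273 and 238 on the control arrays, 336 and 381 with 1 μM compound 1, 286 and 316 at 5 μM, 383 and 405 with 2 μM compound 2, 333 and 397 at 10 μM, and 467 and 547 with siRNA-1. All 8 compound arrays lay above both controls and both siRNA-1 arrays lay above all of them. The change was 0.99 ± 0.14 (adjusted p = 0.00104) with siRNA-1, 1.98-fold, and 0.63 ± 0.14 (adjusted p = 0.0397) with 2 μM compound 2. The other compound groups gave 0.49 ± 0.14 (adjusted p = 0.072) with 1 μM compound 1, 0.24 ± 0.14 (adjusted p = 0.392) at 5 μM and 0.51 ± 0.14 (adjusted p = 0.0752) with 10 μM compound 2. With siRNA-1 PDK3 kept its call against either control, at 0.89 (adjusted p = 0.0139) against control replicate 1 alone and 1.09 (adjusted p = 0.00388) against control replicate 2 alone. With 2 μM compound 2 the value was 0.53 (adjusted p = 0.234) against control replicate 1 alone and 0.72 (adjusted p = 0.0332) against control replicate 2 alone, and for the 4 compound groups together, called at 0.47 ± 0.11 (adjusted p = 0.0256), it was 0.37 (adjusted p = 0.275) against control replicate 1 alone and 0.56 (adjusted p = 0.0368) against control replicate 2 alone. A second, dimmer probe of PDK3 rose to a similar extent with siRNA-1 (0.95, adjusted p = 0.0039) but read -0.19 to -0.41 with the compounds (-0.29, adjusted p = 0.18, for their mean), the opposite sign to the brighter probe and not called, so that the direction of PDK3 with the compounds rests on the probe chosen. PDK1, the kinase most often named among HIF targets, was detected on only 4 of 12 arrays and changed by -0.35 to -0.05 with the compounds and -0.13 with siRNA-1, none called.

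The remaining glycolytic enzymes, most of them the housekeeping isoforms, did not pass the test against control. In all, 18 of 23 tested glycolytic genes were called in none of these comparisons, leaving 5 called in at least 1 of them (5 groups and the mean of the compound groups, each against control), where 20.1% of all genes were called. The 18 had changes from -0.39 (PGAM1, 1 μM compound 1) to 0.52 (PGK1, siRNA-1) and 95% intervals reaching 0.25 to 0.48 to either side. GAPDH, glyceraldehyde-3-phosphate dehydrogenase and a common reference gene, read 12595 and 12749 on the control arrays, 12291 and 12026 with 1 μM compound 1, 12097 and 11265 at 5 μM, 14092 and 11169 with 2 μM compound 2, 11795 and 11188 at 10 μM, and 13289.6 and 12773 with siRNA-1. Treated and control arrays of GAPDH lay within a narrow band. Its changes were -0.06 ± 0.13 (adjusted p = 0.823) and -0.12 ± 0.13 (adjusted p = 0.657) with compound 1 and -0.01 ± 0.13 (adjusted p = 0.962) and -0.14 ± 0.13 (adjusted p = 0.581) with compound 2 at the lower and higher dose, and 0.04 ± 0.13 (adjusted p = 0.887) with siRNA-1. LDHA, the lactate dehydrogenase subunit that favours lactate, read 16242 and 15898 on the control arrays, 18071 and 18743 with 1 μM compound 1, 16945 and 17656 at 5 μM, 20047 and 17238 with 2 μM compound 2, 17156 and 16631 at 10 μM, and 18578 and 22096 with siRNA-1. Every treated array was above both controls, by little. The change of LDHA was 0.20 ± 0.13 (adjusted p = 0.38) and 0.11 ± 0.13 (adjusted p = 0.688) with 1 and 5 μM compound 1, 0.21 ± 0.13 (adjusted p = 0.351) and 0.07 ± 0.13 (adjusted p = 0.799) with 2 and 10 μM compound 2, and 0.33 ± 0.13 (adjusted p = 0.132) with siRNA-1, none called. Hexokinases HK1 and HK2, which trap glucose in the cell, changed by -0.24 to 0.06 with the compounds and by -0.38 and -0.21 with siRNA-1. The phosphofructokinase subunits, which carry the committed step, changed by -0.03 to 0.34 with the compounds and by 0.39 (PFKL), -0.34 (PFKM) and -0.18 (PFKP) with siRNA-1. PKM, pyruvate kinase, gave 0.31 ± 0.12 (adjusted p = 0.115) with siRNA-1 on its brightest probe, while a second probe was called at 0.48 (adjusted p = 0.034).

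**Figure D2:**
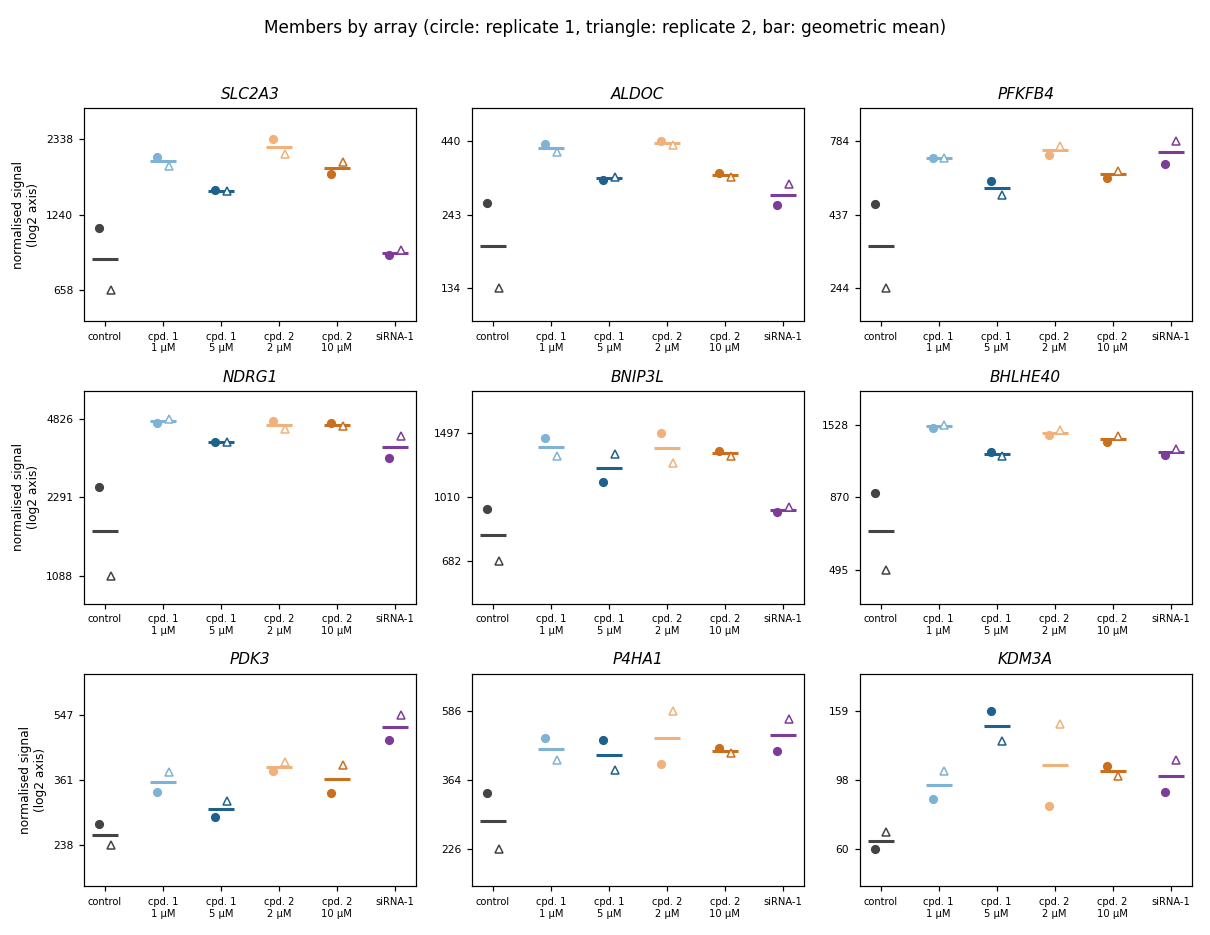
Normalised signal (log2 axis, a scale of its own in each panel) of 9 called members on each of the 12 arrays, by group on the horizontal axis, with circles for replicate 1, triangles for replicate 2 and bars for geometric means of 2 arrays. The 2 control points are far apart in NDRG1, ALDOC, PFKFB4, BHLHE40 and SLC2A3, the compound points lie above both, and siRNA-1 lies near the controls in SLC2A3 and BNIP3L.

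Of the hypoxia targets outside glycolysis, 6 of 11 tested were called in at least 1 of these comparisons, where 20.1% of all genes were. The median log2 fold changes of the 11 were 0.33, 0.28, 0.50 and 0.33 with 1 and 5 μM compound 1 and 2 and 10 μM compound 2, against 0.09, 0.06, 0.07 and 0.05 for the 23 glycolytic genes. NDRG1, a stress-responsive gene linked to differentiation and to the suppression of metastasis, had the largest change. It read 2532 and 1088 on the control arrays, 4637 and 4826 with 1 μM compound 1, 3855 and 3872 at 5 μM, 4733 and 4381 with 2 μM compound 2, 4637 and 4486 at 10 μM, and 3327 and 4087 with siRNA-1. All 10 treated arrays were above both controls, and no other tested member separated the 2 controls as far. NDRG1 rose by 1.51 ± 0.28 (adjusted p = 0.0159) with 1 μM compound 1, 1.46 ± 0.28 (adjusted p = 0.0242) with 2 μM compound 2, 1.46 ± 0.28 (adjusted p = 0.0216) at 10 μM and 1.15 ± 0.28 (adjusted p = 0.0241) with siRNA-1. With 5 μM compound 1 the change was 1.22 ± 0.28 (adjusted p = 0.0508), just short of the threshold. Taking the compound groups together it was 2.66-fold the control, and the log2 value was 0.80 (adjusted p = 0.0284) against control replicate 1 alone and 2.02 (adjusted p = 8.61e-05) against control replicate 2 alone. The siRNA-1 value was 0.54 (adjusted p = 0.0712) against control replicate 1 alone and 1.76 (adjusted p = 0.000135) against control replicate 2 alone.

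BHLHE40 (DEC1), a transcriptional repressor induced by hypoxia and by the circadian clock, read 899 and 495 on the control arrays, 1494 and 1528 with 1 μM compound 1, 1234 and 1197 at 5 μM, 1413 and 1462 with 2 μM compound 2, 1333 and 1398 at 10 μM, and 1207 and 1268 with siRNA-1. All treated arrays were above both controls in BHLHE40. It rose by 1.18 ± 0.21 (adjusted p = 0.0133) with 1 μM compound 1, 1.11 ± 0.21 (adjusted p = 0.0237) with 2 μM compound 2, 1.03 ± 0.21 (adjusted p = 0.0252) at 10 μM and 0.89 ± 0.21 (adjusted p = 0.0196) with siRNA-1, and changed by 0.87 ± 0.21 (adjusted p = 0.0593) with 5 μM compound 1. For the compound groups it was 0.62 (adjusted p = 0.0417) against control replicate 1 alone and 1.48 (adjusted p = 0.000138) against control replicate 2 alone, and for siRNA-1 0.46 (adjusted p = 0.0698) against control replicate 1 alone and 1.32 (adjusted p = 0.000261) against control replicate 2 alone.

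Mitophagy was represented by BNIP3 and BNIP3L, receptors in the outer mitochondrial membrane. BNIP3L read 943 and 682 on the control arrays, 1457 and 1304 with 1 μM compound 1, 1112 and 1323 at 5 μM, 1498 and 1249 with 2 μM compound 2, 1346 and 1305 at 10 μM, and 921 and 949 with siRNA-1. Its compound arrays were above both controls and its siRNA-1 arrays lay close to control replicate 1. BNIP3L rose by 0.78 ± 0.17 (adjusted p = 0.0252) with 1 μM compound 1, 0.77 ± 0.17 (adjusted p = 0.0338) with 2 μM compound 2 and 0.73 ± 0.17 (adjusted p = 0.0404) at 10 μM, and changed by 0.60 ± 0.17 (adjusted p = 0.0894) with 5 μM compound 1 and 0.22 ± 0.17 (adjusted p = 0.455) with siRNA-1. The pooled compound value was 0.48 (adjusted p = 0.165) against control replicate 1 alone and 0.95 (adjusted p = 0.00366) against control replicate 2 alone. Its second probe gave 0.62 to 0.91 with the compounds, called only for their mean (0.80, adjusted p = 0.0261). BNIP3, a much cited HIF target, changed by 0.07 to 0.50 with the compounds and by 0.34 with siRNA-1, and its lowest adjusted p was 0.0646.

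Enzymes that use oxygen as a substrate formed the next set. KDM3A, a demethylase of H3K9, read 60.0 and 67.8 on the control arrays, 85.8 and 104 with 1 μM compound 1, 159.5 and 128 at 5 μM, 81.2 and 145 with 2 μM compound 2, 108 and 100.5 at 10 μM, and 90.0 and 113 with siRNA-1. All treated arrays were above both controls, although replicate arrays of 2 μM compound 2 lay far apart and the signals are low. KDM3A rose by 1.17 ± 0.24 (adjusted p = 0.0285) with 5 μM compound 1 and changed by 0.57 ± 0.24 (adjusted p = 0.169) at 1 μM, 0.77 ± 0.24 (adjusted p = 0.09) and 0.71 ± 0.24 (adjusted p = 0.12) with 2 and 10 μM compound 2 and 0.66 ± 0.24 (adjusted p = 0.105) with siRNA-1. Unlike the genes above, KDM3A was slightly higher in control replicate 2, and against single controls the pooled compound value was 0.89 (adjusted p = 0.159) for replicate 1 and 0.71 (adjusted p = 0.11) for replicate 2. P4HA1, a catalytic subunit of the collagen prolyl hydroxylase, read 333 and 226 on the control arrays, 486 and 419 with 1 μM compound 1, 481 and 390.1 at 5 μM, 406 and 586 with 2 μM compound 2, 455 and 439 at 10 μM, and 445 and 557 with siRNA-1. Treated and control arrays did not overlap. P4HA1 rose by 0.86 ± 0.22 (adjusted p = 0.0279) with siRNA-1, at 0.58 (adjusted p = 0.186) against control replicate 1 alone and 1.14 (adjusted p = 0.0163) against control replicate 2 alone, and its changes with the 4 compound groups, 0.66 to 0.83, were not called one by one (lowest adjusted p 0.0601). Their mean was 0.73 ± 0.17 (adjusted p = 0.0231), or 0.45 (adjusted p = 0.329) against control replicate 1 alone and 1.01 (adjusted p = 0.0137) against control replicate 2 alone. EGLN1 (PHD2), the main prolyl hydroxylase that marks HIF alpha for destruction, read 81.2 and 71.8 on the control arrays, 74.7 and 84.6 with 1 μM compound 1, 76.3 and 57.7 at 5 μM, 66.6 and 73.1 with 2 μM compound 2, 86.7 and 72.9 at 10 μM, and 109 and 114 with siRNA-1. Both siRNA-1 arrays lay above all the other 10 arrays. Its change with siRNA-1 was 0.54 ± 0.16 (adjusted p = 0.0501), at the threshold, and with the compounds -0.20 to 0.06.

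ANKRD37, an ankyrin-repeat gene and HIF target, read 177 and 166 on the control arrays, 180.5 and 220.2 with 1 μM compound 1, 203 and 184 at 5 μM, 213 and 227 with 2 μM compound 2, 216 and 209 at 10 μM, and 261 and 251 with siRNA-1. Both siRNA-1 arrays were above all the others, and the compound arrays were above both controls by a small margin. It rose by 0.57 ± 0.13 (adjusted p = 0.0159) with siRNA-1, and its changes with the compounds were 0.17 to 0.36, not called. The siRNA-1 value was 0.53 (adjusted p = 0.0826) against control replicate 1 alone and 0.62 (adjusted p = 0.0394) against control replicate 2 alone. Of the secreted factors, VEGFA, the principal angiogenic factor, read 994 and 781 on the control arrays, 972 and 982 with 1 μM compound 1, 860.5 and 846 at 5 μM, 1140.3 and 882 with 2 μM compound 2, 973 and 954 at 10 μM, and 1058 and 1015 with siRNA-1. VEGFA arrays of treated and control cells overlapped in every compound group, while both siRNA-1 arrays lay above both controls. Its changes were 0.15 ± 0.15 (adjusted p = 0.587) and -0.05 ± 0.15 (adjusted p = 0.896) with 1 and 5 μM compound 1, 0.19 ± 0.15 (adjusted p = 0.487) and 0.13 ± 0.15 (adjusted p = 0.675) with 2 and 10 μM compound 2, and 0.23 ± 0.15 (adjusted p = 0.376) with siRNA-1. A second probe of VEGFA gave -0.20 to 0.14 with the compounds and 0.39 (adjusted p = 0.0836) with siRNA-1, not called. Between siRNA-1 and the mean of the compound groups that second probe was called (0.37, adjusted p = 0.0269). ADM, the vasodilator adrenomedullin, and ANGPTL4, an inhibitor of lipoprotein lipase, changed by 0.00 to 0.31 with the compounds and by 0.29 and 0.08 with siRNA-1, none called. A second probe of ANGPTL4 had the opposite sign, -0.25 to -0.13 with the compounds and -0.46 (adjusted p = 0.110) with siRNA-1, not called, so that its direction rests on the probe.

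**Figure D3:**
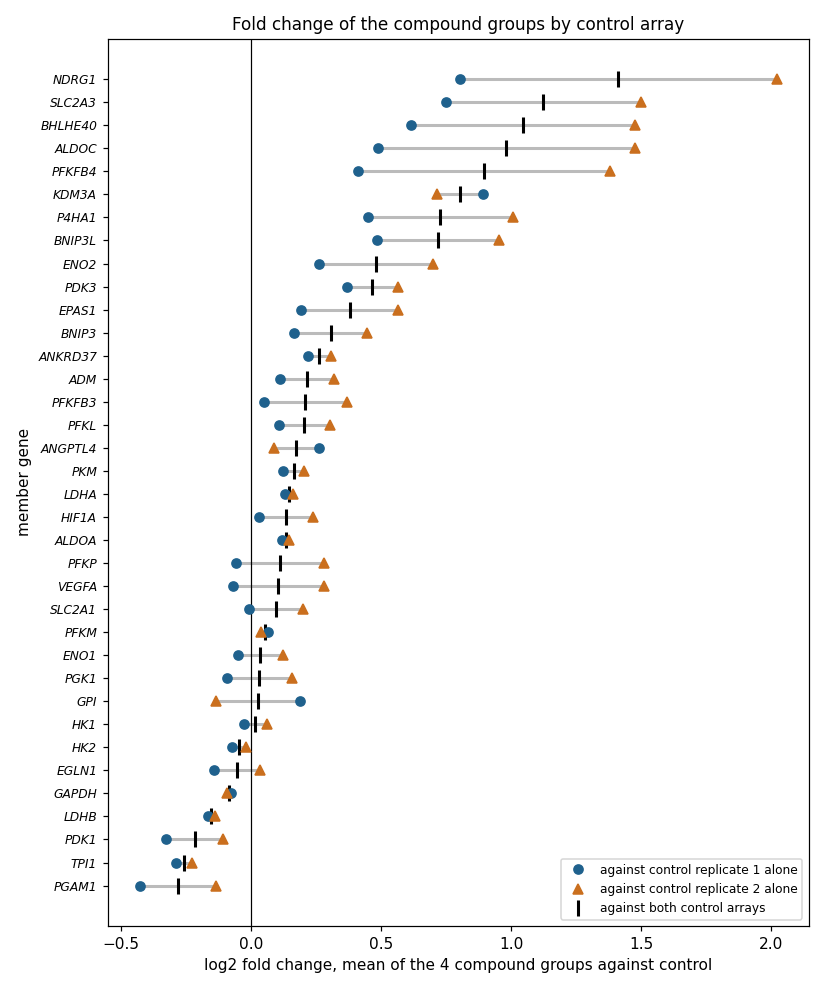
Log2 fold change of the mean of the 4 compound groups (horizontal axis) for each tested member (rows), against both control arrays (black bars), control replicate 1 alone (blue circles) and control replicate 2 alone (orange triangles). In NDRG1 the value runs from 0.80 to 2.02 according to the control, and the top 11 rows, NDRG1 to EPAS1, lie above 0 against either array.

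With siRNA-1 compared with the same control arrays, 7 members were called higher (ANKRD37, BHLHE40, HIF1A, NDRG1, P4HA1, PDK3 and PFKFB4) and 1 lower (EPAS1), while 11.9% of all genes were called, 6% higher and 5.86% lower. The median of the members was 0.27, against -0.03 over all genes, and at an unadjusted p below 0.05 19 of 36 members passed, against 26.6% of all genes. Both siRNA-1 arrays lay above both controls in 21 members and below both in 5, which held for 25.3% and 31% of all genes. Against control replicate 1 alone 2 members were called, EPAS1 and PDK3, and against control replicate 2 alone 10, where 7.39% and 9.79% of all genes were called. Leaving out siRNA-1 replicate 1 left 3 calls (EPAS1, PDK3 and PFKFB4) and leaving out replicate 2 left 1 (PDK3), where 6.78% and 5.4% of all genes were called.

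The 2 HIF alpha subunits moved in opposite directions with siRNA-1. HIF1A read 116 and 101 on the control arrays, 90.8 and 125 with 1 μM compound 1, 119 and 117 at 5 μM, 123 and 154 with 2 μM compound 2, 118 and 111 at 10 μM, and 183 and 189 with siRNA-1. Both siRNA-1 arrays exceeded all the other 10 arrays, and compound and control arrays overlapped. HIF1A rose by 0.78 ± 0.17 (adjusted p = 0.0114) with siRNA-1, 1.72-fold, and the value was 0.68 (adjusted p = 0.0845) against control replicate 1 alone and 0.88 (adjusted p = 0.0258) against control replicate 2 alone. With the compounds its changes were -0.02 to 0.35, not called. Its second probe also rose with siRNA-1 (1.15, adjusted p = 0.030), and with the compounds it gave 0.60 to 0.77, larger than the brighter probe and not called either (0.65, adjusted p = 0.0921, for the mean of the 4 groups). HIF1A is controlled chiefly through the stability of its protein, which arrays do not measure. EPAS1, which encodes HIF-2 alpha, read 436 and 337 on the control arrays, 527 and 522 with 1 μM compound 1, 445 and 430.4 at 5 μM, 540 and 502 with 2 μM compound 2, 500.3 and 531 at 10 μM, and 239.9 and 213 with siRNA-1. The siRNA-1 arrays were below all others and the arrays of 1 μM compound 1 and of compound 2 were above both controls. EPAS1 fell to 0.59 of the control level with siRNA-1, a log2 change of -0.76 ± 0.14 (adjusted p = 0.00478), and the call held at -0.95 (adjusted p = 0.0034) against control replicate 1 alone and -0.58 (adjusted p = 0.0329) against control replicate 2 alone. With the 4 compound groups together it was 0.38 ± 0.11 (adjusted p = 0.0484), or 0.19 (adjusted p = 0.466) against control replicate 1 alone and 0.56 (adjusted p = 0.0172) against control replicate 2 alone.

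**Figure D4:**
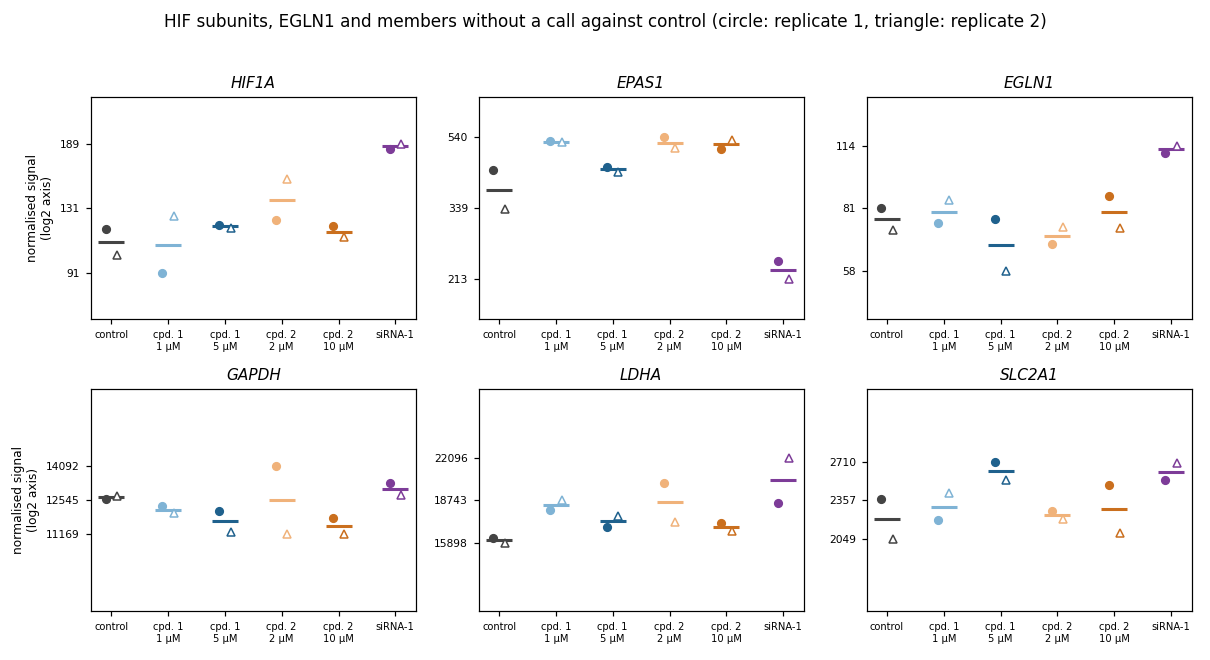
Normalised signal (log2 axis, a scale of its own in each panel) of the HIF subunits, EGLN1, GAPDH, LDHA and SLC2A1 on each of the 12 arrays, with circles for replicate 1, triangles for replicate 2 and bars for geometric means of 2 arrays. The siRNA-1 points stand above all others in HIF1A and EGLN1 and below all others in EPAS1, and GAPDH ranges only from 11,169 to 14,092.

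Comparing siRNA-1 with the mean of the 4 compound groups uses no control array, although it still sets 7 days of a transfected siRNA against 14 days of compound. Of 36 members 5 were higher with siRNA-1 (EGLN1, HIF1A, PDK3, PGAM1 and TPI1) and 5 lower (BNIP3L, EPAS1, HK1, PFKM and SLC2A3), where 22.7% of all genes were called. The share of members called, 27.8%, was near that background, of which 10.9% were higher and 11.8% lower. Both siRNA-1 arrays lay above all 8 compound arrays in 8 members and below them in 7, against 18.2% and 17.4% of all genes. Leaving out siRNA-1 replicate 1 left 5 of the calls and leaving out replicate 2 left EPAS1 and SLC2A3, where 8.65% and 8.73% of all genes were called. The difference was -1.14 ± 0.11 (adjusted p = 4.5e-05) in EPAS1 and -1.05 ± 0.16 (adjusted p = 0.000818) in SLC2A3 (0.454 and 0.484 of the mean compound level). In BNIP3L it was -0.50 ± 0.13 (adjusted p = 0.0211), and its second probe was not called (-0.36, adjusted p = 0.226). HIF1A was higher by 0.65 ± 0.13 (adjusted p = 0.0055), EGLN1 by 0.60 ± 0.12 (adjusted p = 0.00627) and PDK3 by 0.52 ± 0.11 (adjusted p = 0.008). The second probe of HIF1A was not called here (0.49, adjusted p = 0.165), and that of PDK3 was (1.24, adjusted p = 9.46e-05).

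Among the core enzymes, 4 were called only in that comparison. HK1 read 5149 and 4845 on the control arrays, 5228 and 5204 with 1 μM compound 1, 4928 and 5141 at 5 μM, 5248 and 4644 with 2 μM compound 2, 4950.1 and 5093 at 10 μM, and 4301 and 3437 with siRNA-1. Both siRNA-1 arrays of HK1 were below all others, at -0.39 ± 0.11 (adjusted p = 0.0224). PFKM, the muscle-type phosphofructokinase subunit, read 886 and 902 on the control arrays, 899.5 and 1007 with 1 μM compound 1, 928 and 911 at 5 μM, 933 and 824 with 2 μM compound 2, 1012 and 916 at 10 μM, and 738 and 680 with siRNA-1. Its siRNA-1 arrays were again the lowest, with a change of -0.39 ± 0.10 (adjusted p = 0.0173). TPI1, triosephosphate isomerase, read 5060.1 and 4852 on the control arrays, 3770 and 4436 with 1 μM compound 1, 4345 and 4138 at 5 μM, 4373 and 4157 with 2 μM compound 2, 4519.8 and 3559 at 10 μM, and 5604 and 6239 with siRNA-1. Here the compound arrays lay below the controls and the siRNA-1 arrays above them, and the difference was 0.51 ± 0.11 (adjusted p = 0.00876). The second probe of TPI1 was not called in this comparison (0.24, adjusted p = 0.226). PGAM1, phosphoglycerate mutase, read 2331 and 1904 on the control arrays, 1510.3 and 1713 with 1 μM compound 1, 1878 and 1780.1 at 5 μM, 1833 and 1634 with 2 μM compound 2, 2184 and 1437 at 10 μM, and 2641 and 2488 with siRNA-1. The siRNA-1 arrays were above all others, at 0.56 ± 0.15 (adjusted p = 0.0186), and its second probe was called as well (0.70, adjusted p = 0.00998). Signal from the near-identical PGAM4 cannot be separated from that of PGAM1 here. NDRG1, BHLHE40, P4HA1, KDM3A and PFKFB4 were not called in this comparison, with changes of -0.26, -0.16, 0.13, -0.14 and 0.17 and standard errors of 0.17 to 0.22.

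Between the doses of one compound 0 members and 0 of all genes were called by limma. At an unadjusted p below 0.05, 2 members passed between 5 and 1 μM of compound 1 and 0 between 10 and 2 μM of compound 2, against 6.44% and 2.76% of all genes. For compound 1 the members ran from -0.41 (ENO2) to 0.60 (KDM3A), and for compound 2 from -0.37 (ALDOC) to 0.19 (EGLN1). The median difference of the members, higher minus lower dose, was -0.08 for compound 1 and -0.06 for compound 2, against -0.02 and 0.02 over all genes, and the 95% interval of a member reached 0.25 to 0.62 to either side. The 2 compounds were given at different doses and were not compared with each other.

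Further genes of the same pathways came from 2 longer lists. Of 37 other genes of glycolysis, gluconeogenesis and pyruvate, 20 were tested, and against control 0, 0, 1 and 1 were called lower and 0 higher with 5 μM compound 1, 10 μM compound 2, 1 μM compound 1 and 2 μM compound 2. The 1 gene was TIGAR in both, a phosphatase that lowers fructose 2,6-bisphosphate, and it was called with neither against control replicate 1 alone. For the mean of the 4 compound groups against control, 3 were called lower (PCK2, PGM2 and TIGAR) and 1 higher (PDP1). These were 20% of those tested, where 12.2% of all genes were called. PCK2 read 638 to 833 on the compound arrays and PGM2 494 to 613, against control geometric means of 1035 and 719. PDP1, with low signals, read 69.3 to 101.5 on the compound arrays, against geometric means of 42.9 in control and 54.6 with siRNA-1. Between siRNA-1 and the mean of the compound groups, 5 were called higher and 3 lower (40%), where 22.7% of all genes were called. With siRNA-1 against control, 3 were lower and 1 higher (20% of those tested), where 5.86% and 6% of all genes were. PCK2, the mitochondrial enzyme that makes phosphoenolpyruvate, fell from 898 and 1194 on the control arrays to 267 and 209.7, a change of -2.13 ± 0.17 (adjusted p = 1.79e-05). FBP1, the gluconeogenic bisphosphatase, fell by 1.02 ± 0.13 (adjusted p = 0.000329) and PGM2, a phosphopentomutase, by 1.05 ± 0.13 (adjusted p = 0.000308). SLC2A6, a lysosomal hexose transporter, rose by 0.75 ± 0.15 (adjusted p = 0.00908). PCK2, FBP1 and PGM2 kept their calls against either control array alone, while SLC2A6 was 0.87 (adjusted p = 0.0194) against control replicate 1 alone and 0.62 (adjusted p = 0.0645) against control replicate 2 alone.

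Of 45 other genes of the HIF machinery and of hypoxia, 36 were tested, and 2, 3, 5, 3 and 4 were called higher with 5 μM compound 1, 10 μM compound 2, 1 μM compound 1, 2 μM compound 2 and siRNA-1, with 3 lower with siRNA-1 and 0 lower with the compounds. In that order 5.56%, 8.33%, 13.9%, 8.33% and 19.4% of those tested were called in either direction, against 2.49%, 3.69%, 5.73%, 4.09% and 11.9% of all genes. Between siRNA-1 and the mean of the compound groups, 3 were called higher, among them CA12, and 11 lower, among them LOX, STC1 and VLDLR. These were 38.9% of those tested, where 22.7% of all genes were called. CA12, a membrane carbonic anhydrase, read 277 and 254 on the control arrays, 700.5 and 582 with 1 μM compound 1, 504 and 591 at 5 μM, 661 and 596 with 2 μM compound 2, 538 and 658 at 10 μM, and 838 and 892 with siRNA-1. Its controls were close together, and all treated arrays lay clear above them. CA12 rose by 1.27 ± 0.15 (adjusted p = 0.0017) and 1.04 ± 0.15 (adjusted p = 0.00435) with 1 and 5 μM compound 1, by 1.24 ± 0.15 (adjusted p = 0.00326) and 1.17 ± 0.15 (adjusted p = 0.00223) with 2 and 10 μM compound 2, and by 1.71 ± 0.15 (adjusted p = 2.88e-05) with siRNA-1. Against control replicate 1 alone these calls held except that with 5 μM compound 1, at 0.98 (adjusted p = 0.056), and against control replicate 2 alone all 5 held. STC1, stanniocalcin, read 651 and 626 on the control arrays, 1190.2 and 1176 with 1 μM compound 1, 821 and 1002 at 5 μM, 1124 and 1124 with 2 μM compound 2, 928 and 1178 at 10 μM, and 802 and 765 with siRNA-1. Its compound arrays were above both controls, which differed little. STC1 rose by 0.89 ± 0.14 (adjusted p = 0.00857) with 1 μM compound 1, 0.82 ± 0.14 (adjusted p = 0.0158) with 2 μM compound 2 and 0.71 ± 0.14 (adjusted p = 0.0244) at 10 μM, and for the 4 compound groups together it was 0.70 (adjusted p = 0.0759) against control replicate 1 alone and 0.76 (adjusted p = 0.0134) against control replicate 2 alone. LOX, the collagen cross-linking oxidase, rose by 0.87 ± 0.17 (adjusted p = 0.0164) with 1 μM compound 1 and 0.70 ± 0.17 (adjusted p = 0.046) with 10 μM compound 2 and fell by 0.57 ± 0.17 (adjusted p = 0.0493) with siRNA-1. The mean of the compound groups for LOX was 0.43 (adjusted p = 0.148) against control replicate 1 alone and 0.99 (adjusted p = 0.00144) against control replicate 2 alone, and the siRNA-1 value was -0.85 (adjusted p = 0.00626) against control replicate 1 alone and -0.29 (adjusted p = 0.265) against control replicate 2 alone. VLDLR, a lipoprotein receptor, fell by 1.03 ± 0.13 (adjusted p = 0.000305) with siRNA-1 and changed by -0.14 to 0.03 with the compounds. Its siRNA-1 call held against either control array alone.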

How the data were processed

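The authors had RNA of treated MDA-MB231 cells hybridized to Illumina HT-12 v4 arrays and exported the data from BeadStudio (version not given in the sources used here). The non-normalized table deposited by the authors gives bead intensity on a linear scale, not scaled between arrays and with values below 0. The detection p-values deposited beside them compare each signal with negative control beads. These stand in another line order than the signals (rank correlation -0.0041 to 0.0029) and were reassigned by rank within each array. The log2 values of the series matrix, deposited by the authors, are log2 signals less the array median and served as an alternative. Of 47,324 lines, 2 damaged ones were left out.

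Signals were background-corrected with normexp (offset 16) in limma 3.58.1 under R 4.3.3, put on the log2 scale and centred, array by array, at the median of 11,807 probes with detection p below 0.01 on all 12 arrays. This centring assumes that most expressed genes do not shift. The 17,910 probes tested had a detection p below 0.05 in both replicates of 1 group or more. A mean per group was fitted by limma to all 12 arrays (6 residual degrees of freedom), and p was adjusted by Benjamini-Hochberg over all tested probes of a comparison. For the median probe the 95% interval ran 0.34 above and below the log2 estimate. The script was tested on simulated data. Symbols came from the platform annotation, updated through Entrez identifiers.

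The members and lists were chosen with earlier results of these data known. Values by array are given for each member called in a comparison with control or between siRNA-1 and the compound groups, and for HIF1A, EPAS1, SLC2A1, GAPDH, LDHA and VEGFA in any case. From each of the 2 longer lists, up to 4 genes called in a single group against control, with the largest change, are named. TIGAR and PDP1 were added after their values were seen. The mean of the compound groups and the direct comparison with siRNA-1 follow the same fit. Alternatives were background correction, offset, centring, quantile normalization, the detection filter, the series matrix, fits to the groups compared only, the replicate block, other probes of a gene, and leaving out each array. Plots used Python 3.11.15 and matplotlib 3.10.9.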

Additional observations from a re-analysis of the deposited data

How the results depend on the processing

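Counts of called members depended on the processing in the comparisons with control. For 5 μM compound 1, with 1 call as reported, the count was 0 without normexp and 0 with the series matrix, 5 with an offset of 50, 6 when centred on all probes, 4 with quantile normalization, 4 without a detection filter and 4 with detection on all 12 arrays. Of all tested probes, 2.17% were called as reported and 1.4%, 1.21%, 2.9%, 3.5%, 3.04%, 0.818% and 2.97% in these settings in turn. For 10 μM compound 2 (4 as reported) the count was 1 without normexp, 7 with the offset of 50 and 0 when only the groups compared were fitted. The share of all tested probes called went from 3.16% to 1.77%, 5.09% and 0.86%. For 1 μM compound 1 (6) the count was 3 without normexp and 3 in the fit of the groups compared, while the share of all tested probes went from 5.25% to 2.79% and 1.52%. For 2 μM compound 2 (8) the count was 1 without normexp, 3 with the series matrix and 0 in the fit of the groups compared. The share of all tested probes here went from 3.62% to 1.52%, 1.23% and 0.313%. For siRNA-1 (8) the count was 13 with quantile normalization, while the share of all tested probes went from 10.2% to 11%. Leaving out 1 array at a time gave 0 to 6 for 5 μM compound 1, 0 to 9 for 10 μM compound 2, 0 to 9 for 1 μM compound 1, 1 to 11 for 2 μM compound 2, 1 to 10 for siRNA-1, 3 to 10 for the mean of the compound groups and 2 to 12 for siRNA-1 against that mean. Without either array of the group itself the count was 0 for both doses of compound 1 and for 10 μM compound 2, and for 2 μM compound 2 it was 2 without replicate 1 and 1 without replicate 2. The count for 2 μM compound 2 was 4 without either array of 1 μM compound 1, and 5 without either of 10 μM compound 2 or of siRNA-1. In each single comparison with control the highest of these counts came without control replicate 1. Leaving out an array of a compound group also lowered the share of all tested probes called for that group against control. The other tested probe of PDK3 reversed its direction in all 4 compound groups, among them 2 μM compound 2, where PDK3 had been called, at -0.26 (adjusted p = 0.385), and in their mean. Of 17 other tested probes of 14 members, 3 had the opposite sign to the brightest probe for the mean of the compound groups (ANGPTL4, PDK3 and PFKFB3), 3 for siRNA-1 (ANGPTL4, GAPDH and TPI1) and 1 between them (LDHA). Replicate numbers are shared between groups, but the deviations of same-numbered arrays correlated at -0.38 to 0.21, so the numbers were not taken as pairs. With the replicate block the counts were 1, 4, 6, 7 and 8 against control in the order of 5 μM compound 1, 10 μM compound 2, 1 μM compound 1, 2 μM compound 2 and siRNA-1, 9 for the mean of the compound groups, and 10 between siRNA-1 and that mean. The 2 replicate columns of 10 μM compound 2 are exchanged between the non-normalized table and the series matrix. Which of its arrays is replicate 1 is therefore uncertain, while both belong to the same group. With the numbers of 10 μM compound 2 crossed, an alternative chosen after seeing the data, 2 members were called for 5 μM compound 1. The 2 arrays a group and signals near background in HIF1A, EGLN1 and KDM3A limit what could be detected.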
